A study of Mus musculus with 4 samples.

Results

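The genes of cholesterol synthesis, sterol sensing, lipoprotein uptake and trafficking, and cholesterol efflux were followed in mouse fibroblasts with and without induction of Ctcfl. The set is a list of genes by name, ordered by pathway step, and it was chosen with earlier results of these data known. Of its 37 genes, 33 were measured out of 19938 genes on the array. Of these, 16 act in synthesis, 6 in sensing by the sterol regulatory element-binding proteins (SREBPs), 7 in uptake and trafficking and 4 in efflux under the liver X receptors (LXRs). Acat2, Soat1 and Nr1h2 had no probe set under their symbol, and Mbtps2 shared its probe set with another gene, so these 4 are not analysed here.

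All 4 samples came from a stable clone, p19, of NIH3T3 cells, an established mouse fibroblast line, that carried both the integrated plasmid pBI-EGFP-FLAG-mCtcfl and pTA-N. In this Tet-Off clone the 2 control samples were kept in 2 µg/ml doxycycline, which represses the transgene, and the 2 Ctcfl samples spent 48 h in medium without the drug. Drug withdrawal, Ctcfl induction and any induction of the EGFP named in the plasmid cannot be told apart in this design. A single clone also limits the design as a model. Ctcfl encodes a testis-expressed paralog of the insulator protein CTCF. Whether replicates were separate cultures is not given in the sources used here, so a p-value here reflects no more than array-to-array spread, and that spread may be technical.

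Values are log2 signals after robust multi-array averaging (RMA), and a change is the mean of the Ctcfl arrays minus the mean of the control arrays. The array medians lay between 5.20 and 5.24. Ctcfl itself read 7.77 and 7.71 in the controls, above the array medians, and the source of that signal was not tested. In the Ctcfl arrays Ctcfl read 10.37 and 10.35 (log2 change 2.62, SE 0.08, limma adjusted p = 5.38e-04). That call was lost when any 1 of the 4 arrays was left out (limma adjusted p = 0.539 to 0.649). All 10 fibroblast markers examined read 7.48 or more on every array, while the 26 measured markers of epithelial, leukocyte, endothelial, fat, muscle and liver cells read 3.32 to 6.39. Those 26 markers had changes between -0.18 and 0.16. Among the fibroblast markers the median change was -0.08, with Pdgfrb at -0.56 and Col3a1 at -0.38, and the part of these in the sterol gene differences was not tested.

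As background, cells build cholesterol from acetyl-CoA through mevalonate, farnesyl diphosphate, squalene and lanosterol. SREBP2, the product of Srebf2, is held in the endoplasmic reticulum by SCAP and the INSIG proteins when sterols are plentiful. When sterols fall, SCAP carries it to the Golgi, where site-1 and site-2 proteases release the active factor, which switches on most genes of the pathway. LXRs are activated by oxysterols and work in the opposite sense, raising the ABC transporters that export cholesterol.

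Cholesterol synthesis genes were lower in the Ctcfl arrays at nearly every step of the pathway, while the genes of the sensing machinery and of efflux were mostly close to their control levels. Of the 16 synthesis genes 15 had lower values, with a median change of -0.38, against 49.4% of genes with lower values and a median of 0.00 over the whole array. In 14 of them both Ctcfl arrays lay below both controls, which held for 20.6% of all genes. Sensing genes had a median change of -0.03, uptake and trafficking genes -0.12, and LXR and efflux genes 0.04. Of the 33 genes, 15 were among the lowest 5% of changes on the array, and 12 of those 15 were synthesis genes. Because the members were chosen with earlier results of these data known, these comparisons with the whole array are descriptive and test nothing.

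No gene of the set passed a limma adjusted p of 0.05 over all genes. The share of all genes that passed was 0.015% for lower and 0.0301% for higher values. At an unadjusted p under 0.05, 15 of the 33 were lower and 2 were higher, where 5.32% of all genes were lower and 5.36% higher. With an intensity trend and robust variances in limma, 13 of the 33 passed, and all 13 fell. That fit called 1.3% of all genes lower and 1.1% higher. Those 13 were Hmgcs1, Mvd, Idi1, Fdps, Fdft1, Sqle, Lss, Cyp51, Nsdhl and Dhcr7 in synthesis, Insig1 in sensing, and Stard4 and Mylip in uptake and trafficking.

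**Figure D1:**
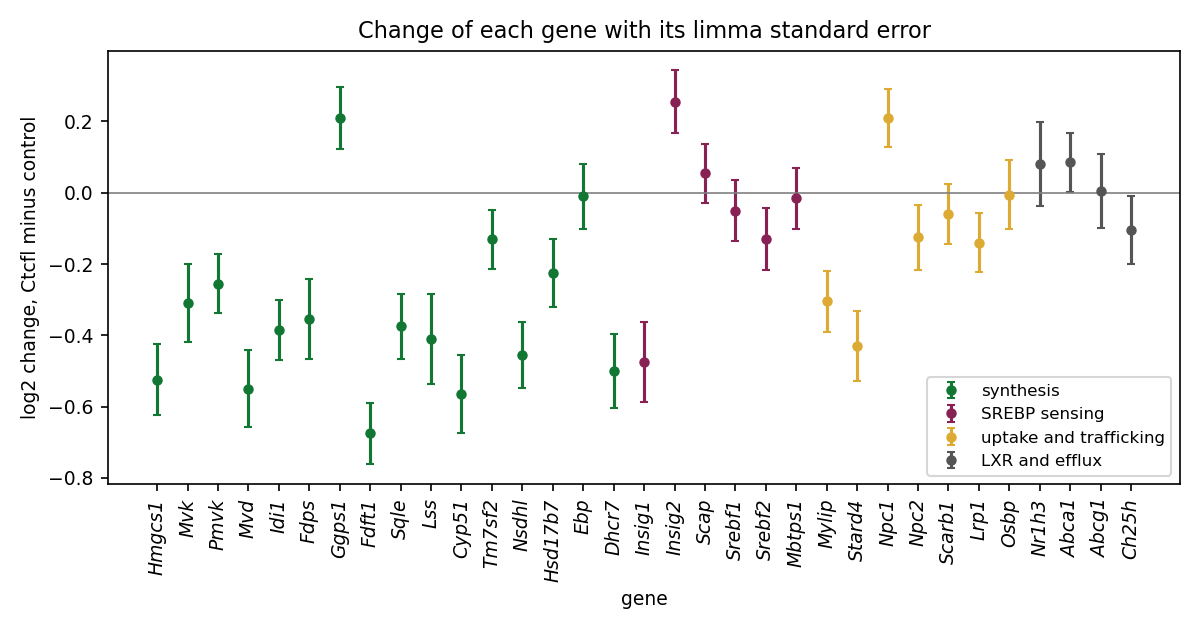
Change of each of the 33 measured genes (y axis, log2 value in Ctcfl minus control, mean of 2 arrays per group) in pathway order along the x axis. Bars are limma standard errors and colours mark the 4 steps; synthesis genes run from -0.68 to 0.21, and Insig1, Mylip and Stard4 lie among them while Insig2 and Npc1 lie above 0.

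In the mevalonate arm the first gene measured was Hmgcs1, the cytosolic HMG-CoA synthase, which joins acetyl-CoA to acetoacetyl-CoA. Its values were 9.52 and 9.72 in the controls and 9.10 and 9.09 in the Ctcfl arrays (change -0.53, SE 0.10, adjusted p = 0.232 by limma). Both Ctcfl values lay below both controls, and they differed from each other by less than the controls did. Mvk and Pmvk, the kinases that phosphorylate mevalonate in turn, differed in the same direction by less. Mvk read 7.99 and 8.10 in the controls and 7.85 and 7.62 with Ctcfl (-0.31, SE 0.11). Pmvk read 6.52 and 6.46 against 6.24 and 6.23 (-0.26, SE 0.08). For neither gene did the groups overlap.

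Mvd, the decarboxylase that yields isopentenyl diphosphate, had the largest difference of this arm. It read 7.78 and 7.81 in the controls and 7.37 and 7.12 with Ctcfl (-0.55, SE 0.11, adjusted p = 0.248 by limma), which is 1.46-fold lower. Idi1, the isomerase of isopentenyl diphosphate, read 9.88 and 9.93 against 9.53 and 9.51 (-0.39, SE 0.08). A second probe set that the annotation names Idi1 gave -0.38. The sources used here give no positions for these probe sets, so whether the brighter one, used here, lies at the Idi1 locus is not known. Fdps, which makes farnesyl diphosphate, read 8.49 and 8.63 against 8.32 and 8.09 (-0.35, SE 0.11). Over these 6 genes, from Hmgcs1 to Fdps, the changes ran from -0.55 to -0.26 with a median of -0.37.

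Farnesyl diphosphate is a branch point. Fdft1, squalene synthase, takes it toward sterols, and it had the largest change of all 33 genes. It read 9.01 and 9.0 in the controls and 8.38 and 8.28 with Ctcfl (-0.68, SE 0.09, 1.60-fold lower, 95% interval -0.88 to -0.47, adjusted p = 0.115 by limma). The controls agreed to within 0.01, the Ctcfl arrays lay well below them, and a second, dimmer probe set for the gene gave -0.60. Fdft1 fell with arrays centred on their medians (adjusted p = 0.0472 by limma) and, as above, with an intensity trend. Over all alternatives its adjusted p ran from 2.89e-05 to 0.651.

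Ggps1 takes farnesyl diphosphate the other way, to the geranylgeranyl diphosphate used for protein prenylation, and it was the only measured synthesis gene with a higher mean. It read 7.77 and 7.66 in the controls and 7.91 and 7.94 with Ctcfl (0.21, SE 0.09, adjusted p = 0.473 by limma), and the groups did not overlap. Within arrays, the log ratio of Fdft1 to Ggps1 was lower with Ctcfl by a difference of -0.89. This pair, like the pair of Insig1 and Insig2, was chosen after its values were seen, and 2 against 2 arrays cannot reach an exact two-sided permutation p below 0.333.

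Squalene is closed into lanosterol by the next enzymes. Sqle, the squalene epoxidase, read 9.85 and 9.97 in the controls and 9.58 and 9.49 with Ctcfl (-0.38, SE 0.09). Lss, lanosterol synthase, read 8.68 and 8.77 against 8.48 and 8.15 (-0.41, SE 0.13). Both genes separated the groups, but the Ctcfl arrays of Lss lay further apart (SD 0.23) than those of any other gene of the set.

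From lanosterol onward the differences were uneven. Cyp51, the lanosterol 14-alpha-demethylase, read 9.58 and 9.52 in the controls and 9.11 and 8.86 with Ctcfl (-0.56, SE 0.11, adjusted p = 0.241 by limma). Nsdhl, which acts in removing the C4 methyl groups, read 10.10 and 10.08 against 9.71 and 9.56 (-0.46, SE 0.09). Dhcr7, which makes cholesterol from 7-dehydrocholesterol, read 7.71 and 7.70 against 7.32 and 7.09 (-0.50, SE 0.10). In these genes the control arrays were within 0.06 of each other and both Ctcfl arrays lay 0.38 or more below the control mean.

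The other genes of this segment differed less. Hsd17b7, the 3-ketosteroid reductase of the same C4 demethylation, read 8.72 and 8.74 against 8.59 and 8.42 (-0.23, SE 0.09). Tm7sf2, a sterol C14 reductase, read 7.48 and 7.47 against 7.37 and 7.32 (-0.13, SE 0.08). Ebp, the sterol isomerase, read 7.80 and 7.68 against 7.77 and 7.69 (-0.01, SE 0.09), and it was the only synthesis gene with overlapping groups. The 95% interval for Ebp ran from -0.23 to 0.21, so a difference of the size seen for Dhcr7 lies outside it. By segment, the median change was -0.37 for the 6 genes up to Fdps, -0.41 for Fdft1, Sqle and Lss, and -0.34 for the 6 genes from Cyp51 to Dhcr7.

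**Figure D2:**
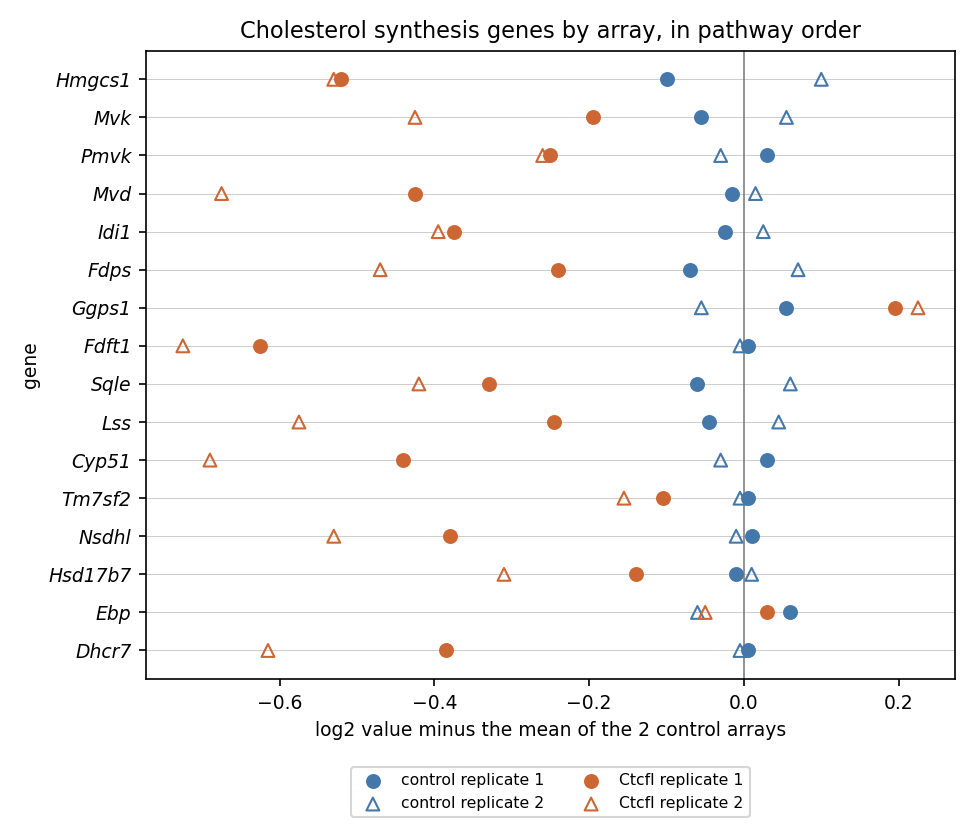
Value of each synthesis gene on each array minus the mean of the 2 control arrays (x axis, log2), genes in pathway order (y axis); circles are replicate 1 and triangles replicate 2 of control (blue) and Ctcfl (orange). In 14 of 16 genes both orange symbols lie left of both blue ones, Ggps1 lies to the right, and Ebp overlaps.

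The Ctcfl arrays differed from each other across the pathway. Replicate 2 read below replicate 1 in 15 of the 16 synthesis genes, by a median of -0.12, while the controls split 8 to 8 with a median difference of 0.01. Over all 33 genes of the set, Ctcfl replicate 2 read below replicate 1 in 27, by a median of -0.06. The share over the whole array was not counted. The per-array median of the synthesis genes, as a deviation from each gene's control mean, was -0.29 in Ctcfl replicate 1 and -0.45 in replicate 2. Both Ctcfl arrays were thus below the controls, and the size of the shift differed between them. Without Ctcfl replicate 2 the median change was -0.29, and without replicate 1 it was -0.45.

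Promoter sequence was examined because the synthesis genes were lower together. RefSeq promoter windows (GRCm38.p6), from 250 bases before to 50 after the start site, were found for 26 of the 33 genes and for 13 of the 16 synthesis genes; several genes have more than 1 window, and a gene was counted when any window matched on either strand. The box bound by NF-Y, a factor that works beside SREBPs at many sterol genes, was searched as CCAAT. It was present in 13 of 13 synthesis genes and in 20 of the 26, against 41.7% of the 15614 array genes with a window. Ggps1, Ebp, Insig2 and Osbp, which were not lower or scarcely so, also hold it. The GC box GGGCGG was present in 11 of the 13 synthesis genes, against 52.9% of array genes. The E-box CACGTG, which is its own reverse complement, was present in 5 of the 26, against 9.50%. The array genes were not matched to the set by signal level, and no difference between these shares was tested.

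The sterol response element was searched as TCACNCCAC, and of the 26 genes only Hmgcs1 held it, against 1.40% of array genes. Sites that depart from these letters, or lie outside the window, are not counted by such a search. The LXR element, searched as AGGTCA repeated after a gap of any 4 bases, was in none of the 26 and in 0.0064% of array genes. The core of the CTCF motif, which CTCFL also recognises, was searched as CCNCNA followed directly by GGNGGC, where N is any base. It was found in the window of Scap alone, against 1.78% of array genes, and Scap had a change of 0.06. None of the motifs in capitals overlaps another in the stretches printed here.

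**Figure D3:**
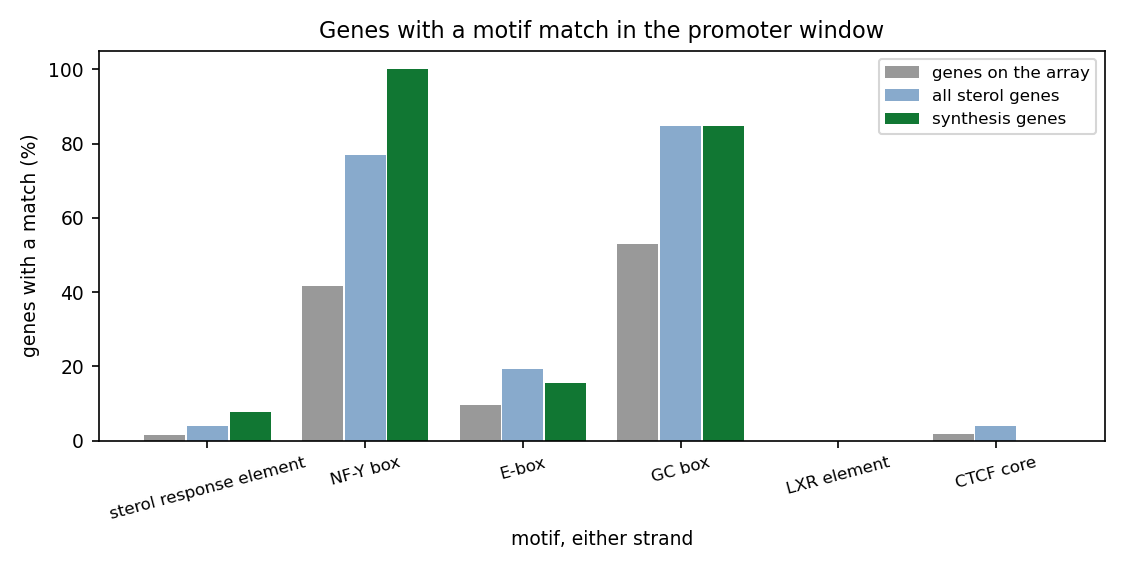
Share of genes (y axis, percent) with at least 1 match to each motif (x axis) in a RefSeq promoter window, for 15614 array genes, the 26 sterol genes and the 13 synthesis genes with a window. The NF-Y box reaches 100% of synthesis genes against 41.7% of array genes, and the sterol response element 7.69% against 1.40%.

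Stretches before the start site, written 5′ to 3′ along the gene's strand, follow for genes that were lower with Ctcfl (Hmgcs1, Mvd, Nsdhl and Insig1) and, for contrast, for Ggps1 and Insig2, which were not. Capitals mark the NF-Y box on either strand (CCAAT or ATTGG), the sterol response element in Hmgcs1 (TCACCCCAC) and the E-box in Insig1 (CACGTG). Each runs over the 250 bases before the start, and of the 3 windows of Insig2 the one with most matches is shown.
Hmgcs1, chr13:119690101-119690350, plus strand: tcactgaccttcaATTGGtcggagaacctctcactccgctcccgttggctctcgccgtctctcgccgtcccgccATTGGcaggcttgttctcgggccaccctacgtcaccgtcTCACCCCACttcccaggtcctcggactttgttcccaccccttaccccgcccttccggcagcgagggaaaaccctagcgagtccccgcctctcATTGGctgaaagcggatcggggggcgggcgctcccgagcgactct
Mvd, chr8:122443423-122443672, minus strand: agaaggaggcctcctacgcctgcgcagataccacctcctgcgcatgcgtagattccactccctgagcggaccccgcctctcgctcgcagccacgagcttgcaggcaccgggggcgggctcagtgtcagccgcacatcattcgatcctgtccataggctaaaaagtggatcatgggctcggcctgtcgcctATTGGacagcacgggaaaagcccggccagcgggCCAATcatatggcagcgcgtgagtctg
Nsdhl, chrX:72918271-72918520, plus strand: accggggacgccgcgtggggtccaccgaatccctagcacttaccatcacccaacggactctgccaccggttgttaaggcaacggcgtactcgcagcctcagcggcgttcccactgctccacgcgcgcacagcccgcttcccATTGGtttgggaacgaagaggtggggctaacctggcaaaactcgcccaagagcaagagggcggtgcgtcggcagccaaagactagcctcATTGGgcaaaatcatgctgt
Insig1, chr5:28071162-28071411, plus strand: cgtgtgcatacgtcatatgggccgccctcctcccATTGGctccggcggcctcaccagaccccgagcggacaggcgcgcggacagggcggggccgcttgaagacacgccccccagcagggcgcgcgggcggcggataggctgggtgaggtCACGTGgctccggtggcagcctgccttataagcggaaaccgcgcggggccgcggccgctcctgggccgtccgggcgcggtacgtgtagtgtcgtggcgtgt
Ggps1, chr13:14063489-14063738, minus strand: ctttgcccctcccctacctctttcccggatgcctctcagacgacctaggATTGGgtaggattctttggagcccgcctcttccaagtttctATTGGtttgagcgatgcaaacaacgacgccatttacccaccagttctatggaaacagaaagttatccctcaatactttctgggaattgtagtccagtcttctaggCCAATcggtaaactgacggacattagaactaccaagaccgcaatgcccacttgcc
Insig2, chr1:121332590-121332839, minus strand: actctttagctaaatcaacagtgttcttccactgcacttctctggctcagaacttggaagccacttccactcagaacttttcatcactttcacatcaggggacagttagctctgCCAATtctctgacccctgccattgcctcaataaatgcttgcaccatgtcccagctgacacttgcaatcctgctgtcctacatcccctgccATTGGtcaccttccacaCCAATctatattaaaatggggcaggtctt
Hmgcs1 holds 3 NF-Y boxes in this stretch, Mvd 2, Nsdhl 2 and Insig1 1, and Ggps1 and Insig2 hold 3 each. The Insig2 count is that of the window with most matches, and its other windows held no NF-Y box. Whether the number of boxes goes with the change was not tested. The 2 windows of Scap hold the same match to the CTCF core, and the one with the lower coordinates was taken. For Scap the last 120 bases before the start are shown, with the match to the CTCF core in capitals.
Scap, chr9:110333168-110333287, plus strand: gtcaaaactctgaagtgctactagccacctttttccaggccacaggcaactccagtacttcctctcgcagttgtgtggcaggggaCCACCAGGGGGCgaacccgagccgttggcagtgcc

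Among the sensing genes, Insig1 was lower and Insig2 higher with Ctcfl, and the rest lay near their control levels. INSIG1 retains SCAP and SREBPs in the endoplasmic reticulum, and its gene is itself a well-known SREBP target. Insig1 read 10.24 and 10.38 in the controls and 9.95 and 9.72 with Ctcfl (-0.47, SE 0.11, adjusted p = 0.300 by limma). Whether SREBP activity has a part in the differences of any gene here was not tested. Insig2, whose product has the same retaining role, went in the other direction. It read 8.48 and 8.59 against 8.77 and 8.81 (0.26, SE 0.09, adjusted p = 0.422 by limma). Neither gene had overlapping groups, and the log ratio of Insig1 to Insig2 within arrays was lower with Ctcfl by a difference of -0.73.

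The transcription factors and their processing machinery differed less. Srebf2 read 9.61 and 9.66 in the controls and 9.55 and 9.46 with Ctcfl (-0.13, SE 0.09, 95% interval -0.34 to 0.08), so its groups did not overlap while its interval included 0. Srebf1, whose product favours fatty acid genes, read 7.10 and 7.16 against 7.11 and 7.05 (-0.05, SE 0.09). Scap, the escort protein, read 8.26 and 8.29 against 8.35 and 8.31 (0.06, SE 0.08), with no overlap but a difference smaller than its standard error. Mbtps1, the site-1 protease, read 9.64 and 9.58 against 9.63 and 9.56, and its groups overlapped. These are messenger RNA levels, and the processing of SREBP proteins was not measured.

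**Figure D4:**
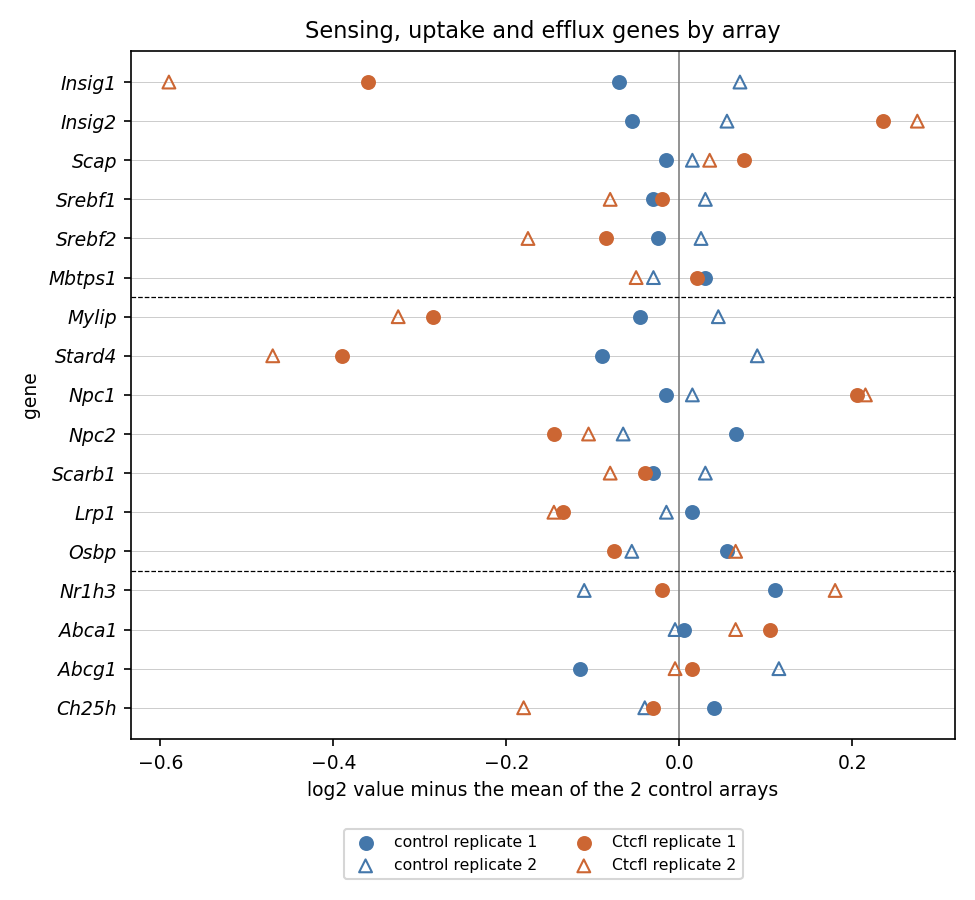
Value of each sensing gene (top), uptake and trafficking gene (middle) and LXR or efflux gene (bottom) on each array minus the mean of the 2 control arrays (x axis, log2); circles are replicate 1 and triangles replicate 2 of control (blue) and Ctcfl (orange). Insig1, Mylip and Stard4 lie left of the controls on both Ctcfl arrays, and Insig2 and Npc1 lie right of them. Srebf2, Npc2, Scarb1 and Lrp1 also lie left, and Scap and Abca1 right, with smaller changes.

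Among uptake and trafficking genes, 6 of 7 had lower values (49.4% of all genes) and 5 were lower without overlap (20.6% of all genes), but most differences were small. Stard4, a soluble carrier that moves sterol between membranes and is a known SREBP target, read 8.46 and 8.64 in the controls and 8.16 and 8.08 with Ctcfl (-0.43, SE 0.10, adjusted p = 0.296 by limma). Mylip, also called IDOL, is an LXR-induced ubiquitin ligase that sends lipoprotein receptors for degradation. It read 8.33 and 8.42 against 8.09 and 8.05 (-0.30, SE 0.09, adjusted p = 0.355 by limma). The groups of both genes were apart by more than the spread between replicates.

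The Niemann-Pick genes, whose products pass cholesterol out of lysosomes, differed in direction. Npc1 read 8.53 and 8.56 in the controls and 8.75 and 8.76 with Ctcfl (0.21, SE 0.08, adjusted p = 0.450 by limma), with replicates of each group within 0.03. Npc2 read 9.04 and 8.91 against 8.83 and 8.87 (-0.12, SE 0.09), and its difference was close to the distance between its controls. For Npc1 the groups stood apart, while Npc2 separated them only narrowly.

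Receptor genes were near their control levels. Lrp1, a large endocytic lipoprotein receptor, read 9.92 and 9.89 against 9.77 and 9.76 (-0.14, SE 0.08). Scarb1, the scavenger receptor that binds high-density lipoprotein, read 8.88 and 8.94 against 8.87 and 8.83 (-0.06, SE 0.08). Osbp, the oxysterol-binding protein that exchanges lipids between the endoplasmic reticulum and Golgi, read 9.05 and 8.94 against 8.92 and 9.06, with overlapping groups. None of these 3 genes had a 95% interval that excluded 0.

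The LXR and efflux genes had low signals, all at or below the 50.2 percentile of gene means, and detection calls were not used, so small differences there cannot be separated from background. Abca1 and Abcg1 encode the exporters that load cholesterol onto lipoproteins. Abca1 read 5.40 and 5.39 in the controls and 5.50 and 5.46 with Ctcfl (0.09, SE 0.08). Abcg1 read 5.42 and 5.65 against 5.55 and 5.53 (0.01, SE 0.10). The Abca1 groups were apart by less than 0.1 and those of Abcg1 overlapped.

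Nr1h3, which encodes LXR-alpha, read 4.75 and 4.53 against 4.62 and 4.82 (0.08, SE 0.12). Ch25h, the enzyme that makes the oxysterol 25-hydroxycholesterol, read 3.93 and 3.85 against 3.86 and 3.71 (-0.10, SE 0.09). Both had overlapping groups, so no gene of this step apart from Abca1 separated the groups. The upper limit of the 95% interval for Abca1 was 0.29 and that for Abcg1 0.26.

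**Figure D5:**
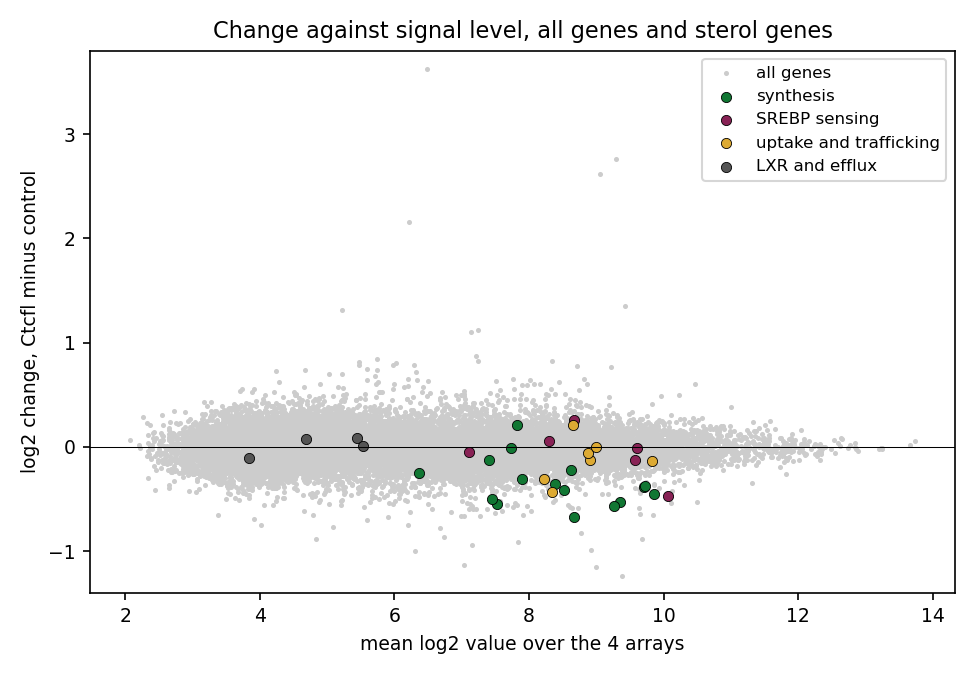
Change (y axis, log2 value in Ctcfl minus control) against the mean log2 value over the 4 arrays (x axis) for 19938 genes (grey) and the 33 sterol genes coloured by step. Of the 16 synthesis genes 12 are among the lowest 5% of changes, while Ggps1, Ebp, Tm7sf2 and Hsd17b7 lie higher in the grey cloud, and the 4 LXR and efflux genes lie at low signal near 0.

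Other genes of sterol handling were taken from a list of 26, of which 19 were measured. In this list 14 had lower and 5 higher values, with a median of -0.06; 10 were lower and 4 higher without overlap, where all genes gave 20.6% each way, so the count of higher genes is near the background. None passed over all genes by limma, and 4 were lower and 1 higher at an unadjusted p under 0.05, where all genes gave 5.32% and 5.36%. Gramd1a, an Aster protein that carries sterol from the plasma membrane to the endoplasmic reticulum, read 7.77 and 7.81 in the controls and 7.38 and 7.44 with Ctcfl (-0.38, SE 0.08, adjusted p = 0.277). Tmem97, the sigma-2 receptor and a known SREBP target, read 9.88 and 9.81 against 9.57 and 9.38 (-0.37, SE 0.10).

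Enzymes of the last part of synthesis in this list ran the same way as Cyp51 and Dhcr7. Sc5d, the sterol C5 desaturase, read 9.44 and 9.51 against 9.19 and 9.17 (-0.30, SE 0.08). Msmo1, the C4-methyl oxidase, which was singled out after its values were seen, read 11.95 on both controls and 11.74 and 11.64 with Ctcfl (-0.26, SE 0.09). Lipa, the lysosomal acid lipase that frees cholesterol from its esters upstream of the Niemann-Pick proteins, was higher, with 8.71 and 8.68 against 8.94 and 8.97 (0.26, SE 0.08). Lipa and Npc1 were thus higher on both Ctcfl arrays while Npc2 was not, and none of the 3 passed the test.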

How the data were processed

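Total RNA from the 4 samples was extracted with a column kit and hybridised as biotin-labelled cRNA, per the labels. The authors deposited log2 values from RMA, run in Expression Console, per the labels; its version and settings are not given in the sources used here. RMA corrects background, quantile-normalises arrays and summarises probe sets, which can compress small differences.

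Of 35512 probe sets, 35511 had values. Platform annotation gave 21789 of them 1 gene symbol, 1621 several and 12101 none, and the brightest probe set stood for each gene. The 19938 genes were fitted in R 4.3.3 with lmFit and eBayes of limma 3.58.1 (two-sided, Benjamini-Hochberg over all genes, threshold 0.05; prior 4.21 degrees of freedom), with statmod 1.5.0 for the robust alternative. Lists are described by counts and medians without a test. The fit was tested on simulated data. Motifs were searched as plain letters in Python 3.11.15.

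The genes named were the whole set, Ctcfl, and the 4 smallest p-values of each companion list; Msmo1 and the markers given with values were chosen after seeing them. The members and lists were chosen with earlier results of these data known. Alternatives covered the variance model, normalisation, dim genes, probe sets, a replicate block and each array left out.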

Additional observations from a re-analysis of the deposited data

How the results depend on the processing

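Direction was stable for the synthesis genes. Over the alternatives that keep all arrays, 14 or 15 of the 16 had lower values, and the median change of the step ran from -0.40 to -0.37. The number of the 33 genes that passed over all genes was 0 with quantile normalisation, without the dimmest 33.3% of genes, with the mean of probe sets, in a fit over all 35511 probe sets and with ordinary t statistics (15 to 19 at an unadjusted p under 0.05), but 1 with median centring (Fdft1) and 13 with robust variances and an intensity trend. With each array left out it was 0 (8 to 15 unadjusted), and the synthesis median ran from -0.45 to -0.29, the sensing median from -0.07 to 0, the uptake and trafficking median from -0.16 to -0.09, and the LXR and efflux median from -0.0025 to 0.03; without the dimmest genes the last was 0.08, because Ch25h was left out. The number of genes lower without overlap was 20 to 24 and higher 5 to 7, with fewer arrays making separation easier when 1 is left out. Signs changed for Abcg1, Ebp, Mbtps1, Osbp and Nr1h3 under at least 1 alternative, all with changes of at most 0.08 in size, and for no other gene.

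Replicate numbers are shared by the groups but the labels give no pairing, and the deviations of same-numbered arrays had a correlation of -0.10 across genes. A replicate block left 0 of the 33 genes past the threshold (14 unadjusted) and gave Ctcfl an adjusted p of 0.0710; it left 0 of 19938 genes against 9 without it. The crossed pairing, chosen after seeing the data, also gave 0 (17 unadjusted). Ctcfl itself, with a log2 change of 2.59 to 2.65, lost its call under the block, in the fit over all probe sets, with ordinary t statistics and with any array left out, so in these settings the induced gene was not called either. The number of arrays, 2 per group, limits the precision. Signal above background was not measured, which limits the LXR and efflux genes most.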

Other observations

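Fatty acid genes that SREBPs also drive differed less, by median, than the synthesis genes (-0.38). Their median was near those of the sensing genes (-0.03) and of the other sterol genes (-0.06), and no difference between lists was tested. Of 11 measured fatty acid genes 8 had lower and 3 higher values, with a median change of -0.04. Without overlap 5 were lower and 3 higher, where all genes gave 20.6% each way, so the count of higher genes is near the background. None passed over all genes by limma, and at an unadjusted p under 0.05 there were 2 with lower values, where all genes gave 5.32%. Elovl6, which lengthens palmitate, read 8.60 and 8.63 in the controls and 8.40 and 8.34 with Ctcfl (-0.25, SE 0.08). Scd1, a stearoyl-CoA desaturase, had a change of -0.24 (SE 0.09) and Elovl5, an elongase of polyunsaturated fatty acids, -0.19 (SE 0.08). Gpam, the mitochondrial glycerol-phosphate acyltransferase, had 0.15 (SE 0.09).

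Of 5 measured partners and targets of LXRs, 2 had lower and 3 higher values. The retinoid X receptor genes Rxra and Rxrb, whose products pair with LXRs, had changes of -0.23 (SE 0.09) and -0.19 (SE 0.10), each without overlap. Lpcat3, a phospholipid acyltransferase induced by LXRs, had 0.15 (SE 0.09), and Abcg4, a sterol transporter, had 0.07 (SE 0.09), also without overlap. In this list 2 genes were thus lower and 2 higher without overlap, where all genes gave 20.6% each way. None of these 4 passed over all genes by limma, and the difference from the synthesis genes was not tested.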
